A study of Mus musculus with 6 samples.

Results

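The PI3K, AKT and FOXO axis is described here through 9 genes in mouse Ba/F3-N cells given N-arachidonoyl dopamine (NADA). The genes are the catalytic subunits Pik3ca and Pik3cd, the regulatory subunit Pik3r1, the inhibitor Pik3ip1, the kinase Akt1, the transcription factors Foxo1 and Foxo3, and the FOXO-regulated genes Irs2 and Ccng2. They are represented by the probe sets that the platform annotation pairs with exactly 1 gene, that gene being among the 9. This gave 32 probe sets for 9 of the 18193 genes named in this way. Ba/F3-N is a bone marrow-derived mouse line, Ba/F3, carrying the oncogenic G12D form of NRAS, and both groups carried it. NADA joins arachidonic acid to dopamine and binds cannabinoid receptors and the vanilloid channel TRPV1. Samples exposed to 1 µM NADA for 12 hours (3 arrays) were compared with samples given an equal volume of vehicle for 12 hours (3 arrays), to ask which transcripts differed after the compound. The labels do not say whether the samples of a group came from separate cultures, so p-values reflect array-to-array spread alone, and this spread may be technical.

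Class I PI3K is a lipid kinase made of a catalytic and a regulatory subunit that is drawn to the membrane by receptors, docking proteins such as IRS2, and RAS. Its product recruits AKT, which is then phosphorylated and in turn phosphorylates FOXO factors, keeping them out of the nucleus. When AKT activity is low, FOXO factors enter the nucleus and switch on genes that slow the cell cycle, feed autophagy and raise docking proteins of the same pathway. The arrays measure mRNA and give neither phosphorylation nor localization of these proteins.

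The deposited values are linear intensities for each probe set, and levels are compared within a probe set only. Median intensity lay between 38.9 and 39.1 on the NADA arrays and between 37.9 and 38.1 on the vehicle arrays. The correlation across genes was 0.997 to 0.998 between arrays of a group and 0.936 to 0.939 between groups. Bacterial poly-A control RNAs, which enter each sample ahead of the labelling step, averaged 8.72 ± 0.21 (SD, n = 3) on the log2 scale in NADA against 8.14 ± 0.01 (SD, n = 3) in vehicle, and the log2 ratio of the 3′ to the 5′ probe set of Actb was 1.06 ± 0.05 and 0.67 ± 0.04. Hybridization controls read 10.02 to 10.13 in NADA and 9.82 to 10.00 in vehicle on the log2 scale. The same ratio for Gapdh was -0.14 to -0.02 in NADA and -0.26 to -0.20 in vehicle. All of these separated the groups without overlap (two-sided exact permutation test, p = 0.1, the smallest that 3 against 3 arrays can give). Their part in the results was not tested. Scaling the arrays to the poly-A controls lowers every log2 fold change by 0.58, with the median of all genes at -0.57, and values under it are given with the tested member genes. Of the pro-B and Ba/F3 markers, the leukocyte antigen Ptprc and the cytokine receptor chains Csf2rb and Csf2rb2 were bright, whereas the B-lineage genes Cd79a, Pax5, Ebf1, Vpreb1 and Rag1 were dim in both groups. The B-lineage genes Cd79b (mean intensity 112 in NADA and 81.0 in vehicle) and Igll1 (50.03 and 43.8) lay above the limit for testing, and Cd79b rose by 0.46 on the log2 scale, a value of -0.12 with poly-A scaling. Of 12 such markers 6 reached the limit for testing, and the 12 together summed to an intensity of 13766 to 13842 in NADA and 5965 to 6205 in vehicle. Of the 6 tested, 5 rose and 0 fell, Csf2rb2 by 2.35, Csf2rb by 1.75 and Ptprc by 0.68 on the log2 scale. With poly-A scaling these 3 values were 1.77, 1.18 and 0.10. The markers of T and NK cells (2 of 6 above the limit) summed to 209 to 221 in NADA and 199 to 218 in vehicle. The sums were 345 to 360 and 353 to 363 for fibroblasts, epithelium and endothelium (3 of 11), 868 to 893 and 651 to 669 for myeloid and mast cells (4 of 10), and 1096 to 1190 and 939 to 947 for erythroid cells and megakaryocytes (6 of 7). Of the 4 tested myeloid and mast cell markers 2 rose, Adgre1 by 1.36 and Lyz2 by 0.74 on the log2 scale, and 1 fell, Cpa3 (-0.24). Of the 6 tested erythroid and megakaryocyte markers 4 rose and 1 fell, Itga2b (455 in NADA and 539 in vehicle). Rhag, among those that rose, read 168 in NADA and 13.1 in vehicle, so it reached the limit for testing only through the NADA arrays. The part of these markers in the results was not tested.

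Of the 9 genes, 7 had at least 1 probe set bright enough to test, and by the brightest of these 5 rose and 2 fell in NADA. Pik3ip1, Ccng2 and Foxo3 rose by more than 2-fold, Pik3cd and Pik3ca rose by less, Akt1 fell by 0.93 on the log2 scale, and Pik3r1 fell slightly. Foxo1 and Irs2 were dim on all arrays and were not tested. A probe set was tested where its mean intensity over the 6 arrays reached 39.0, the median of all probe sets that are not controls, and called at an adjusted p under 0.05 (limma, Benjamini-Hochberg over 22519 probe sets). Over all probe sets tested 70.8% were called, 34.5% higher and 36.3% lower in NADA, and over the 10520 genes taken by their brightest probe set 72.5% were called. Of the 21 tested member probe sets 14 (66.7%) were called, 10 higher and 4 lower, a share near that background. The groups did not overlap at 15 of the 21, against 73.9% of all probe sets tested. By size, 3 of the 7 genes rose at least 2-fold, against 4.93% of all genes tested. Of these, Foxo3 was under 2-fold with poly-A scaling (log2 fold change 0.55) and as the mean of all its probe sets (0.78). By the brightest probe set 0 of the 7 fell at least 2-fold, against 6.06%, although a second probe set of Akt1 did. These members had been chosen with earlier results of the same data known. In a culture measured in bulk, fewer cells of a type and less RNA per cell cannot be told apart.

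**Figure D1:**
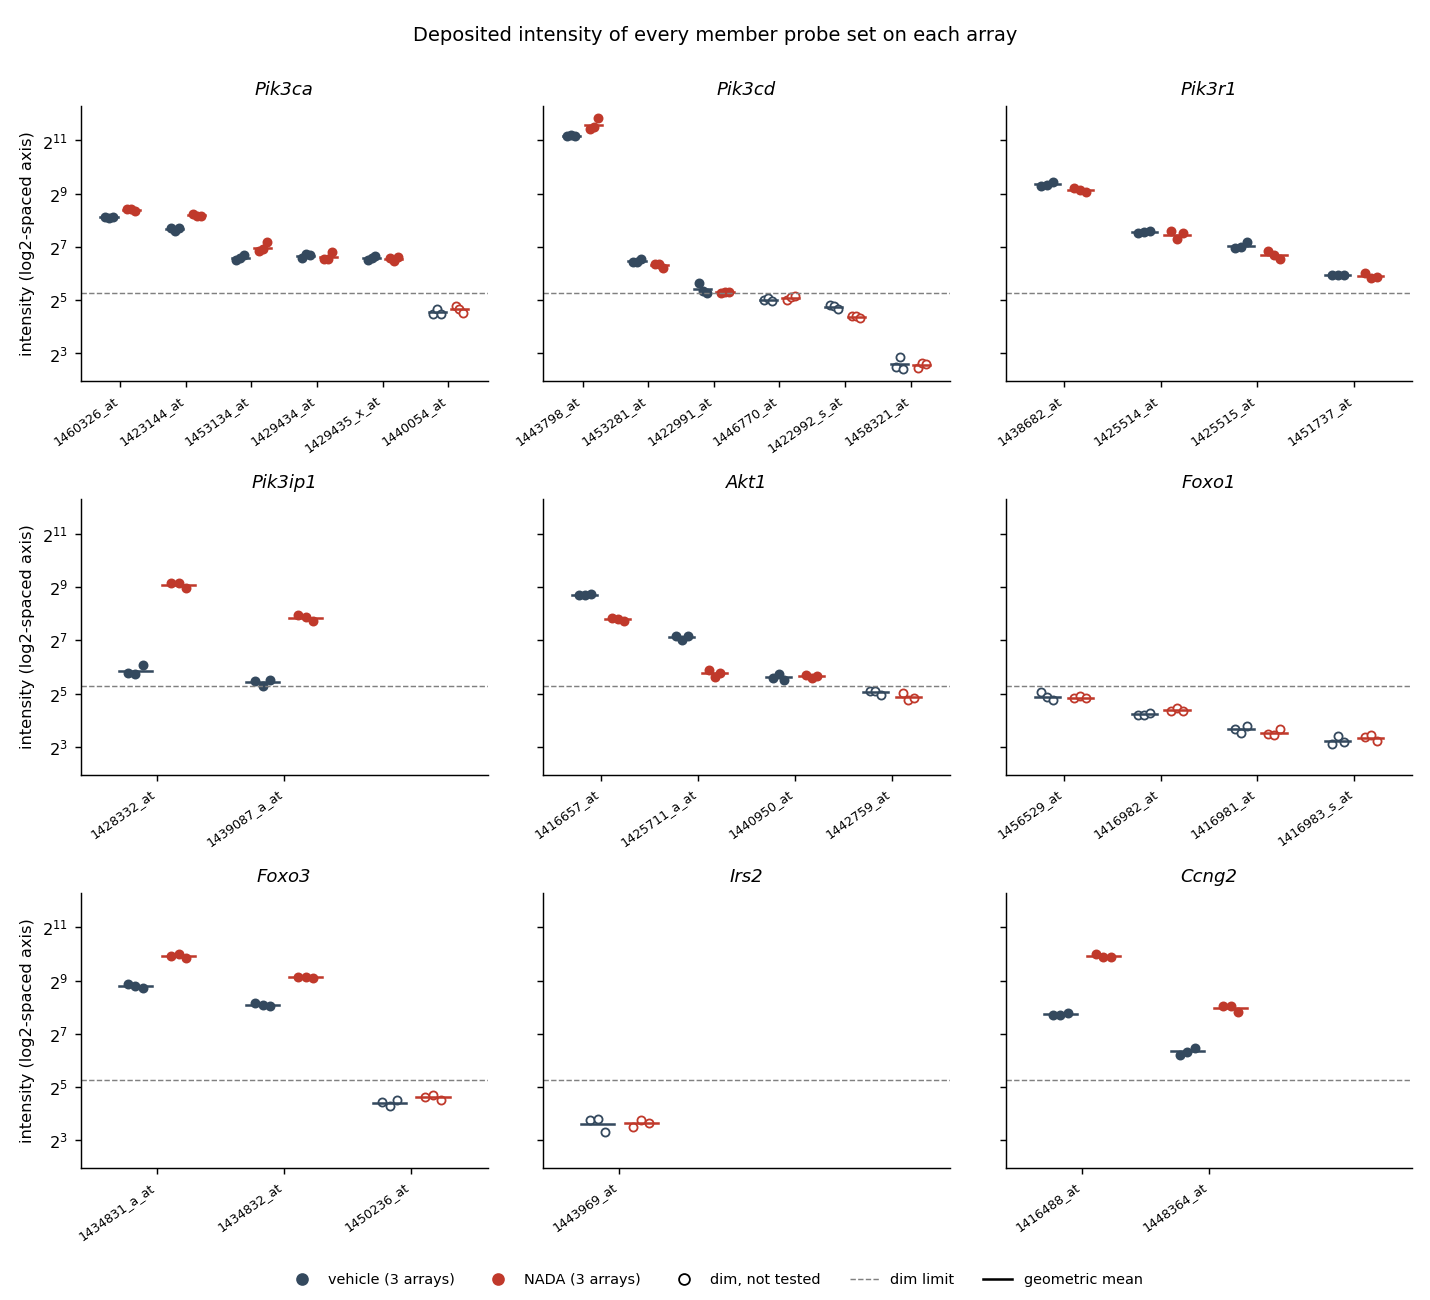
Deposited intensity (log2-spaced axis) of all 32 member probe sets, with 1 point per array, vehicle in dark blue, NADA in red, a bar at the geometric mean of each group, open points for dim probe sets and a dashed line at the dim limit of 39.0. Both probe sets of Pik3ip1 and both of Ccng2 separate the groups widely, and all probe sets of Foxo1 and Irs2 lie under the limit.

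The promoters of the 4 called members with the largest change are shown because FOXO factors bind DNA directly and several of these genes are known as FOXO-regulated. The window runs from 250 bases before to 50 bases after the start, read on the gene's strand, from RefSeq on GRCm38.p6, and each of the 9 members matched an entry. The motif searched was GTAAACA, the core bound by FOXO factors, on both strands, where its reverse complement reads TGTTTAC. Capitals mark a match.
Pik3ip1 (chr11:3330481-3330780, plus strand): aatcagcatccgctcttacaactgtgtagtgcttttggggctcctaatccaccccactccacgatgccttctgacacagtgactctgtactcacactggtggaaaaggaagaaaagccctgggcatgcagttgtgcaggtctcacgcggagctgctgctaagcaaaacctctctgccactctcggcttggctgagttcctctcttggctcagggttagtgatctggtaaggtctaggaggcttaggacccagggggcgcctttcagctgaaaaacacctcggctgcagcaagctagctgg
Ccng2 (chr5:93267323-93267622, plus strand): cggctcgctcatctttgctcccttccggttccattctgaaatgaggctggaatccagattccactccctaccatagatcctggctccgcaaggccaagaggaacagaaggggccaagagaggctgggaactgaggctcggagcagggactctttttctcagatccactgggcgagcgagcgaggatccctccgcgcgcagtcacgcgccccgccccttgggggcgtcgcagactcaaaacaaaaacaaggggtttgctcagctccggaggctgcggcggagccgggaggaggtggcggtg
Foxo3 (chr10:42276646-42276945, minus strand): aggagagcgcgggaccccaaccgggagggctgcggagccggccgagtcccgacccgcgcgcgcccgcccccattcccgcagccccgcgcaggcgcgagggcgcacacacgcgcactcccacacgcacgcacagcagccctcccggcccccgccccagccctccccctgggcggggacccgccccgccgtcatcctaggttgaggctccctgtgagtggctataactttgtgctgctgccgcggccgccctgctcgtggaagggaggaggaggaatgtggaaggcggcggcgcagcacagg
Akt1, outer start (chr12:112674835-112675134, minus strand): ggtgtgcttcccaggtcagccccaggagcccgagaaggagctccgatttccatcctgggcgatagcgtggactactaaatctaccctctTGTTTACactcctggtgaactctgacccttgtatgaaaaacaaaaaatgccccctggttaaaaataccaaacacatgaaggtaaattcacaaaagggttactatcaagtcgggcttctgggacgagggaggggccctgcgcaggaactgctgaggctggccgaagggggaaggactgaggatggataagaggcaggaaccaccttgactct
Of 13 promoter windows of the members 1 held the motif, at position -161 from the outer start of Akt1 and on the strand opposite to the gene. A second window of Akt1, at the inner start (chr12:112674227-112674526), is not shown and did not hold the motif. Among all 32851 windows of the same length 3.65% held it. The windows of Pik3ip1, Ccng2 and Foxo3 did not contain these letters, which says nothing of binding elsewhere. Base composition differed among them: the GC content was 54.7% for Pik3ip1, 62.0% for Ccng2 and 75% for Foxo3, against a median of 52.7% over all windows. The Pik3ip1 window held 7 CpG dinucleotides, that of Ccng2 21 and that of Foxo3 35.

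Among the catalytic subunits, Pik3ca, which encodes p110 alpha, the isoform that carries insulin and growth factor signals in most cells, rose slightly at 3 of its 5 tested probe sets. At the brightest, 1460326_at, the NADA arrays read 347, 341 and 327 and the vehicle arrays 281, 275 and 276. All NADA arrays lay above all vehicle arrays, and the log2 fold change was 0.29 ± 0.05 (SE; adjusted p = 9.58e-05). At 1423144_at the NADA arrays read 301, 284 and 290 and the vehicle arrays 209, 192 and 208, again without overlap and with a log2 fold change of 0.52 ± 0.05. At 1453134_at the log2 fold change was 0.38 ± 0.09 (adjusted p = 0.00205). The other tested probe sets, 1429434_at and 1429435_x_at, overlapped between groups, with log2 fold changes of -0.05 (95% interval -0.23 to 0.14) and -0.03 (-0.18 to 0.12). The last of these is of a type that can bind other transcripts. The difference in log2 fold change between 1429435_x_at and the brightest probe set was -0.32, without overlap between groups. After scaling to the poly-A controls the brightest probe set turned to -0.29 (adjusted p = 0.0216), and the values at 1423144_at and 1453134_at were -0.06 and -0.20, so the direction for Pik3ca holds only relative to the bulk of genes.

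Pik3cd encodes p110 delta, the catalytic isoform that predominates in leukocytes, and its probe sets disagreed. Probe set 1443798_at was the brightest of 6, with 2741, 2922 and 3651 on the NADA arrays and 2317, 2339 and 2274 on the vehicle arrays. The groups did not overlap, NADA replicate 3 stood above the other NADA arrays, and the log2 fold change was 0.42 ± 0.08 (adjusted p = 2.44e-04), or 0.29 without that array. At 1453281_at the NADA arrays read 83.1, 82.6 and 73.3 and the vehicle arrays 85.9, 87.1 and 93.7, lower in NADA without overlap, but the fit did not call it (log2 fold change -0.16 ± 0.07, 95% interval -0.32 to 0.00262, adjusted p = 0.073). At 1422991_at, one of the probe sets drawn from a RefSeq mRNA of the gene, the log2 fold change was -0.12 (-0.34 to 0.09). This probe set lay close to the dim limit, at 39.1 to 39.6 in NADA and 38.8 to 49.9 in vehicle. The log2 fold changes of these probe sets were lower than that of the brightest by 0.58 and 0.54, and in neither difference did the groups overlap. The dim 1422992_s_at, drawn from the same mRNA, read 20.1 to 21.2 in NADA and 25.7 to 28.0 in vehicle, without overlap. Its log2 fold change was -0.38, with an adjusted p = 0.00306 in the fit without the dim filter. With all 6 probe sets averaged at equal weight, the 3 dim ones included, the log2 fold change was -0.03 (adjusted p = 0.603). With poly-A scaling the log2 fold change of the brightest probe set was -0.16 (adjusted p = 0.248), so no single direction describes Pik3cd on these arrays.

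Pik3r1, the gene of the p85 alpha subunit that holds and stabilizes the catalytic chains, fell slightly at 2 of its 4 probe sets. At 1438682_at the NADA arrays read 589, 571 and 530 and the vehicle arrays 620, 647 and 696, with no overlap. The log2 fold change was -0.22 ± 0.05 (adjusted p = 0.0024), and at 1425515_at it was -0.35 ± 0.09 (adjusted p = 0.0026). At 1425514_at and 1451737_at the groups overlapped, with log2 fold changes of -0.10 (95% interval -0.26 to 0.07) and -0.05 (-0.22 to 0.12). All 4 values were below 0, and poly-A scaling moved the brightest further down, to -0.79.

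Pik3ip1, a transmembrane protein that binds the catalytic subunit and restrains PI3K, had the largest change of the members. At 1428332_at the NADA arrays read 567, 573 and 503 and the vehicle arrays 54.5, 54.1 and 66.9. The groups were widely separated, and the mean difference was 9.40-fold, a log2 fold change of 3.23 ± 0.08 (adjusted p = 1.75e-12) that ranked 6 from the top among 10520 genes. At 1439087_a_at the NADA arrays read 246, 235 and 214 and the vehicle arrays 44.3, 38.7 and 45.7, also without overlap, with a log2 fold change of 2.43 ± 0.08. The vehicle arrays stood close to the dim limit at both probe sets, and with 32 added before log2 the log2 fold changes were 2.68 and 1.81, the latter more than 1.5 times smaller as a fold. The probe sets differed from each other by -0.80 in log2 fold change. In vehicle the brightest probe set of Pik3ip1 lay at the 13.4 percentile of intensity among genes tested, and in NADA at the 72.0 percentile. With poly-A scaling the log2 fold change was 2.65.

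Akt1, the gene of the kinase that PI3K lipids activate, fell at its brighter probe sets. At 1416657_at the NADA arrays read 229, 226 and 213 and the vehicle arrays 420, 421 and 425. The groups were far apart relative to their spread, and the log2 fold change was -0.93 ± 0.05 (adjusted p = 1.10e-09), the lowest among the 7 tested genes. At 1425711_a_at the NADA arrays read 58.5, 49.99 and 54.3 and the vehicle arrays 143, 129 and 144, a larger change of -1.35 ± 0.08. The difference between these probe sets was -0.43 in log2 fold change, without overlap between groups. At 1440950_at, close to the dim limit, the arrays read 48.3 to 52.6 in NADA and 45.8 to 53.4 in vehicle, with a log2 fold change of 0.04 (95% interval -0.14 to 0.23) that was -0.53 with poly-A scaling, and it differed from the brightest probe set by 0.97. Poly-A scaling moved the brightest to -1.503, and averaging all 4 probe sets of the gene, 1 of them dim, gave -0.61.

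The FOXO factors differed in whether they could be measured at all. Foxo3, which activates arrest and autophagy genes in blood cells, read 975, 1015 and 917 on the NADA arrays and 463, 440 and 427 on the vehicle arrays at 1434831_a_at. All NADA arrays lay far above all vehicle arrays, with a 2.18-fold difference and a log2 fold change of 1.13 ± 0.05 (adjusted p = 1.44e-10). At 1434832_at the NADA arrays read 563, 565 and 541 and the vehicle arrays 290, 268 and 267, and the log2 fold change was 1.02 ± 0.05. The third probe set, 1450236_at, was dim, with 22.9 to 26.0 in NADA and 19.5 to 23.2 in vehicle. A further probe set, 1444226_at, is paired with Foxo3 and a predicted gene together, so it is no member, and its log2 fold change was 0.52, which turned to -0.05 with poly-A scaling. With poly-A scaling the brightest probe set of Foxo3 gave 0.55, and averaging all 3 probe sets of the gene, 1 of them dim, gave 0.78.

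Foxo1, the FOXO factor that early B-cell development depends on, was dim at all 4 probe sets. The brightest, 1456529_at, read 28.8, 29.8 and 28.4 on the NADA arrays and 33.2, 29.3 and 26.9 on the vehicle arrays. Its groups overlapped. At 1416982_at the NADA arrays read 20.3 to 21.9 and the vehicle arrays 18.4 to 19.6, without overlap but far under the limit. Without the dim filter the adjusted p of the 4 probe sets lay between 0.269 and 0.830, so that no difference was detectable at this signal.

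Of the FOXO-regulated members, Ccng2 could be measured and Irs2 could not. Ccng2 encodes cyclin G2, an unusual cyclin that restrains the cell cycle. At 1416488_at the NADA arrays read 1035, 941 and 936 and the vehicle arrays 211, 212 and 220. The groups were far apart, with a 4.52-fold difference and a log2 fold change of 2.18 ± 0.05 (adjusted p = 6.34e-13), rank 49 from the top among all genes tested. At 1448364_at the NADA arrays read 264, 264 and 227 and the vehicle arrays 74.7, 79.7 and 89.4, and the log2 fold change was 1.63 ± 0.08. The probe sets differed by -0.54 in log2 fold change, and poly-A scaling gave 1.599 at the brightest. Irs2, the insulin receptor substrate that couples receptors to PI3K, had 1 probe set, 1443969_at, with 11.3, 13.6 and 12.7 on the NADA arrays and 13.7, 13.9 and 9.89 on the vehicle arrays. These overlapped, and the probe set was dim throughout.

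**Figure D2:**
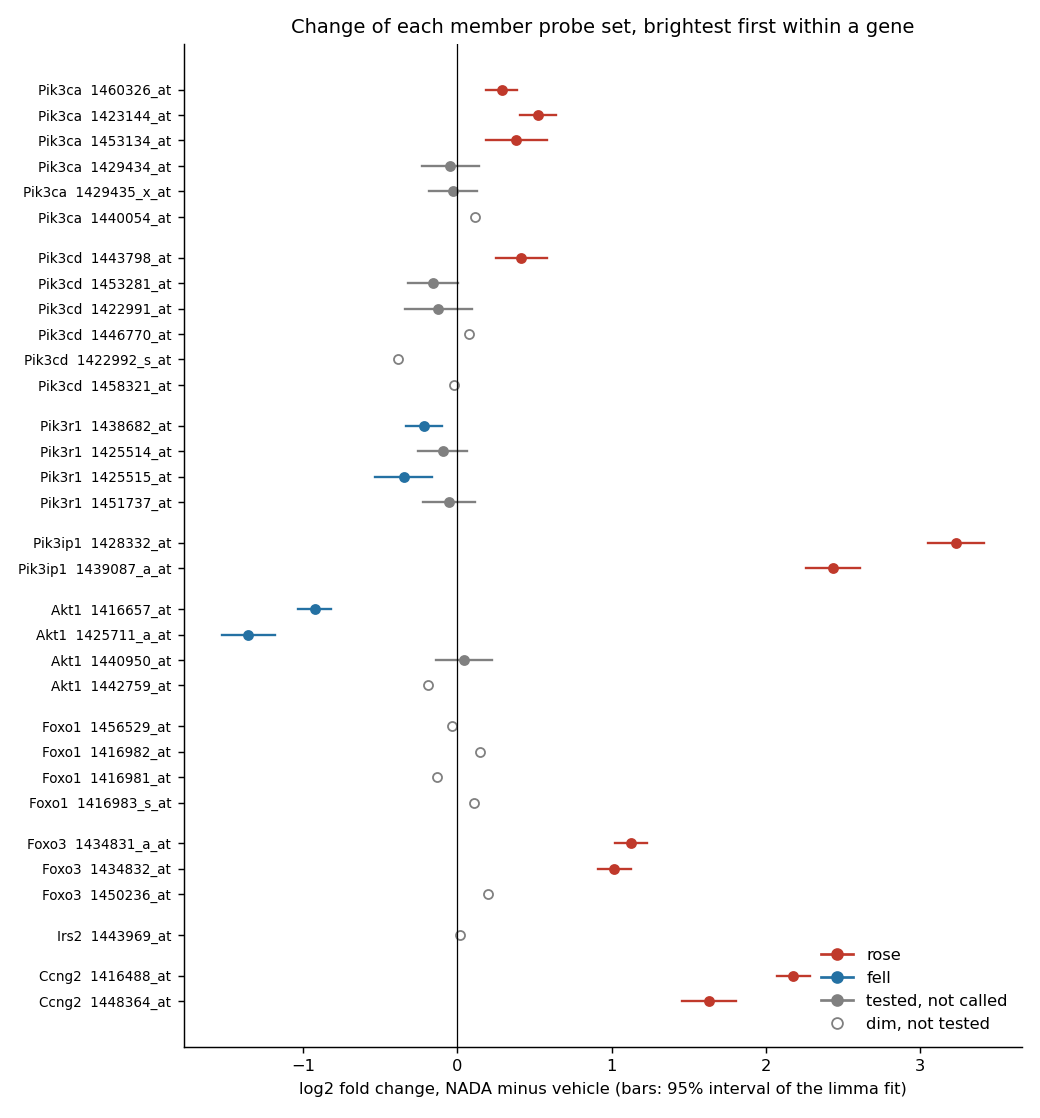
Log2 fold change (NADA minus vehicle) of each of the 32 member probe sets, brightest first within a gene, with the 95% interval of the limma fit for the 21 tested and open points for the 11 dim ones. Both probe sets of Pik3ip1 and of Ccng2 lie far to the right, 2 of Akt1 lie to the left, and those of Pik3cd fall on both sides of 0.

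In all, 14 pairs of a tested probe set with the brightest of its gene were compared within arrays, and in 11 the groups did not overlap. No such share was taken over the pairs of all genes. Of all single probe sets tested, 73.9% separated the groups. The two-sided exact permutation test gave p = 0.1 for these, the smallest possible (adjusted p = 0.127 over the 14 pairs). With this number of arrays the test cannot fall under 0.05, so it does not decide whether the probe sets of a gene differ. Each size above is given for the probe set named.

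Genes whose pattern was most like that of a member were taken by the distance between log2 profiles over the 6 arrays, each set to its vehicle mean. For Pik3ip1, the member with the largest log2 fold change, they were Trp53inp1 (distance 0.36), Aox1 (0.40) and Oasl1 (0.40), with log2 fold changes of 3.07, 3.20 and 3.05. For Akt1, the member with the lowest, they were Mcm4, Mcm7 and Tmem39b (distances 0.03, 0.03 and 0.04), with log2 fold changes of -0.92, -0.92 and -0.92. With 2 groups of 3 arrays this measure is set almost wholly by the size of the change between the groups.

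**Figure D3:**
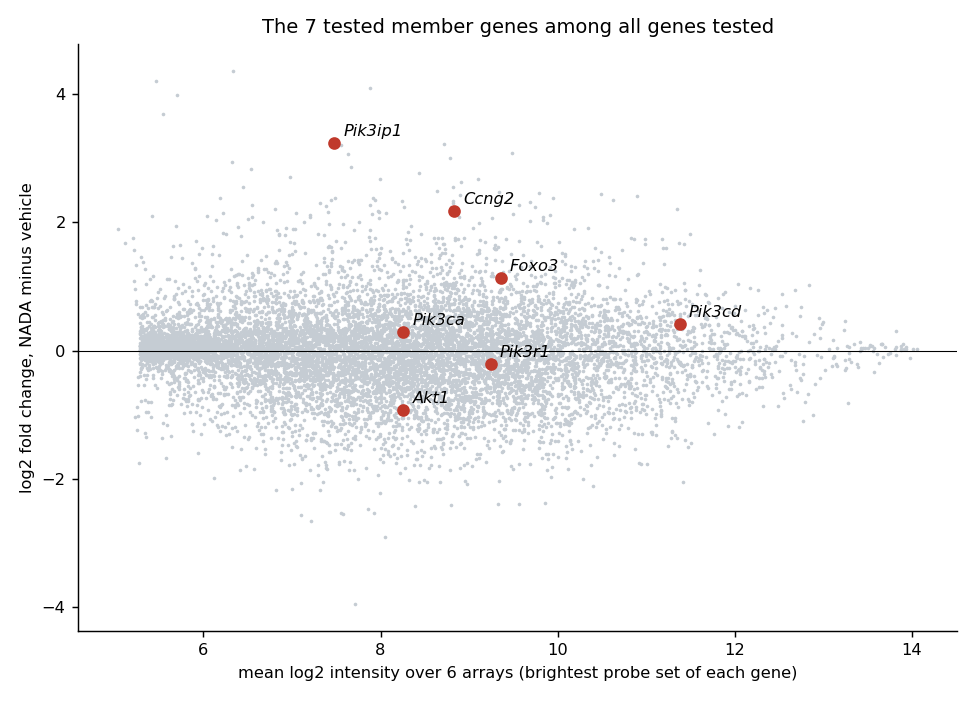
Log2 fold change (NADA minus vehicle) against mean log2 intensity over the 6 arrays for the 10520 genes tested, each by its brightest probe set, with the 7 tested members in red. Pik3ip1 (3.23) and Ccng2 (2.18) lie at the upper edge of the cloud, and Pik3ca (0.29) and Pik3r1 (-0.22) lie within its dense part.

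The other genes of the pathway were described by 8 lists, each gene taken by its brightest tested probe set, beside 35.3% of all genes that rose and 37.2% that fell. The median log2 fold change of all genes tested was 0.01. The lists were drawn up with earlier results of these data known. Among other PI3K subunits and adaptors 7 of 9 rose and 1 fell. Their median log2 fold change was 0.43, which turned to -0.15 with poly-A scaling. Pik3r6, a regulatory subunit of the gamma isoform, rose by 1.21 ± 0.05, from a mean intensity of 403 in vehicle to 931 in NADA. Pik3ap1, an adaptor that links receptors of B cells to PI3K, rose by 0.96 ± 0.04, and Pik3c2a, a class II PI3K, by 0.65 ± 0.05. Pik3c3, the kinase that acts in autophagy, rose by 0.44 ± 0.06, and turned to -0.14 with poly-A scaling.

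Receptors and docking proteins upstream of PI3K moved in both directions, with 6 of 10 higher and 3 lower (median 0.18, and -0.40 with poly-A scaling). The docking proteins Gab2 and Gab3, which bring the regulatory subunit to activated receptors, rose by 1.74 ± 0.06 (571 in NADA and 171 in vehicle) and 1.82 ± 0.11 (144 and 41.0). Ptpn11, the phosphatase SHP2 that binds GAB proteins, changed by -0.88 ± 0.04, and Igf1r, the receptor for insulin-like growth factor, by -0.64 ± 0.04. Irs1, Irs4, Gab1, Kit and Flt3 were dim.

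Among phosphatases that act against the pathway 7 of 10 rose and 1 fell (median 0.28, and -0.30 with poly-A scaling). Inpp5k and Inpp5d, the latter encoding the SHIP phosphatase of blood cells, rose by 1.35 ± 0.06 (685 in NADA and 268 in vehicle) and 0.71 ± 0.04 (962 and 588). Inpp4b, which removes a phosphate from the product of those enzymes, rose by 0.76 ± 0.06. Ppp2r5c, a regulatory subunit of protein phosphatase PP2A, rose by 0.36 ± 0.04, and turned to -0.22 with poly-A scaling.

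At the level of AKT, 3 of 9 genes rose and 4 fell (median -0.05, and -0.63 with poly-A scaling). Trib3, a pseudokinase known to bind AKT and to be induced by stress, rose by 2.32 ± 0.05 (1007 in NADA and 201 in vehicle). Sgk3, a kinase related to AKT, changed by -0.45 ± 0.05 and Mapkap1, a subunit of mTORC2, by -0.31 ± 0.05. Pdpk1, which phosphorylates AKT, rose by 0.22 ± 0.04, and turned to -0.36 with poly-A scaling. Akt2, named after its values were seen, fell by 0.22 on the log2 scale, and whether it differed from Akt1 was not tested.

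Among AKT substrates and genes of mTORC1 control 5 of 17 rose and 8 fell, 0 of them by 2-fold (median -0.10, and -0.68 with poly-A scaling). Tsc1, which holds mTORC1 down, rose by 0.51 ± 0.05, a value of -0.07 with poly-A scaling. The 14-3-3 protein gene Ywhae, whose product keeps phosphorylated FOXO in the cytoplasm, changed by -0.38 ± 0.04, the translation repressor Eif4ebp2 by -0.35 ± 0.04 and the death gene Bad by -0.37 ± 0.06. Foxo4, also named after its values were seen, rose by 0.30 ± 0.08, and this turned to -0.28 with poly-A scaling.

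FOXO target genes were mostly higher. Of 38 on the array 22 were bright enough to test, of which 19 rose, 6 of them at least 2-fold, and 2 fell. The median log2 fold change was 0.79. With poly-A scaling 10 rose and 6 fell, with a median of 0.21. Under that scaling 739 of all 10520 genes rose and 8004 fell. Map1lc3b, an autophagosome protein, rose by 1.25 ± 0.04 (4809 in NADA and 2026 in vehicle), the mitophagy kinase Pink1 by 2.26 ± 0.07 (204 and 42.7), the stress gene Gadd45a by 2.33 ± 0.08 and the mitophagy receptor Bnip3 by 1.496 ± 0.05. Named after seeing their values, the 2 lower genes were the superoxide dismutase Sod2 (-0.61 ± 0.03) and Gadd45b (-0.17 ± 0.07). The lymphoid targets Il7r, Klf2, S1pr1, Rag1 and Rag2 were dim, as were the metabolic targets G6pc, Pck1 and Igfbp1. Many of these genes also answer to other regulators.

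Of the 3 listed genes that FOXO factors are known to repress, all fell. Ccnd2 and Ccnd1, the D cyclins that drive entry into the cycle, changed by -1.36 ± 0.03 (1556 in NADA and 3997 in vehicle) and -1.71 ± 0.06 (107 and 349), and Srebf1, a regulator of lipid synthesis, by -0.20 ± 0.07. Among regulators of FOXO 4 of 13 rose and 9 fell (median -0.34, and -0.92 with poly-A scaling). Skp2, a ubiquitin ligase component that marks FOXO1 for degradation, changed by -2.02 ± 0.06 (159 in NADA and 643 in vehicle) and the arginine methyltransferase Prmt1 by -1.77 ± 0.05. Foxk2, a forkhead factor that binds similar sites, changed by -1.57 ± 0.08, and the acetyltransferase Crebbp rose by 0.81 ± 0.04.

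**Figure D4:**
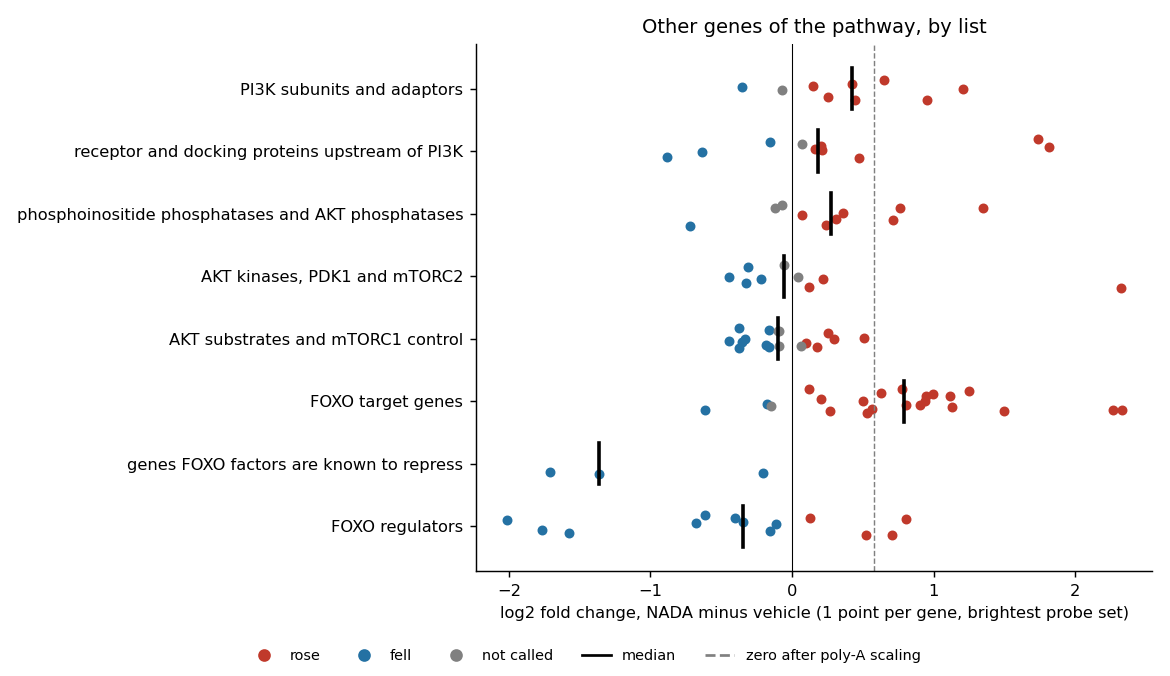
Log2 fold change (NADA minus vehicle) of the other pathway genes, with 1 point per gene, a bar at each list's median and a dashed line where 0 lies after poly-A scaling. The points of the FOXO targets lie mostly to the right of 0 with a median of 0.79, those of the AKT substrates lie close to 0, and the genes that FOXO factors repress lie to the left.

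The order of the 7 tested members by log2 fold change was Pik3ip1, Ccng2, Foxo3, Pik3cd, Pik3ca, Pik3r1 and Akt1. Across all the ways of processing tried, Pik3ip1, Ccng2 and Foxo3 stayed above 0 and Akt1 and Pik3r1 below it. Pik3ca changed sign with poly-A scaling. Pik3cd did so with that scaling and with the mean over its probe sets, dim ones included.

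**Figure D5:**
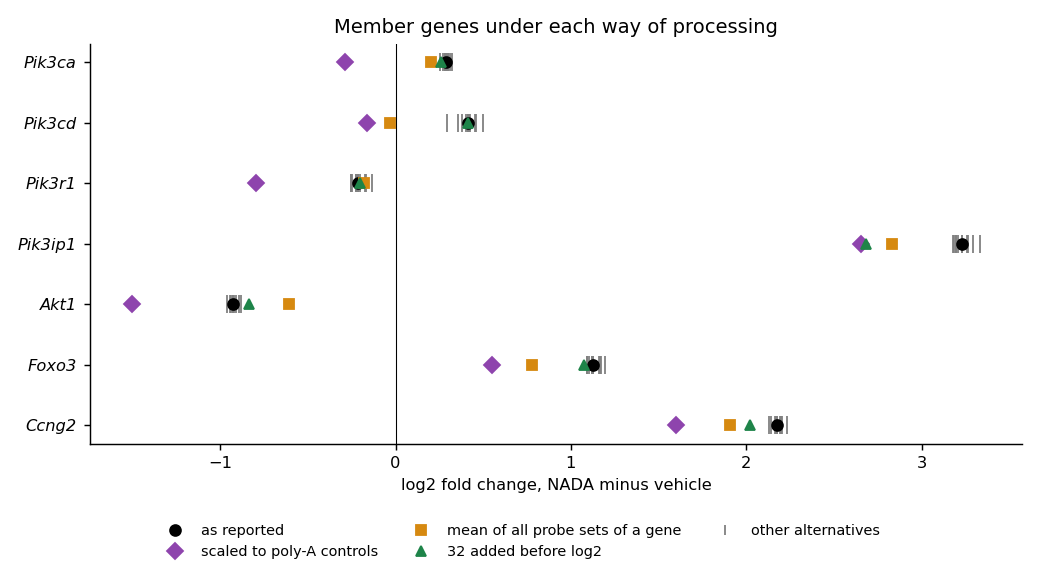
Log2 fold change (NADA minus vehicle) of the 7 tested members under each way of processing, with the reported value as a black circle, poly-A scaling as a diamond, the mean over a gene's probe sets as a square, 32 added before log2 as a triangle and the other alternatives as ticks. Pik3ca and Pik3cd are the members with symbols on both sides of 0.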

How the data were processed

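RNA of 6 samples was hybridised to Affymetrix Mouse Genome 430 2.0 arrays, 3 NADA and 3 vehicle, grouped by sample title. The authors deposited linear intensities for 45101 probe sets, ranging from 2.19 to 20113. The submitters' processing notes name MAS5 and RMA, with the role of each not given in the sources used here. No detection calls were used. After log2, with no further normalization, the 64 control probe sets were left out, and probe sets with a mean intensity under 39.0 were left out as dim, which left 22519. The platform annotation paired 34945 probe sets with 1 gene, and gene identifiers of 34741 matched RefSeq on GRCm38.p6 (names only).

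The groups were compared by limma 3.58.1 (R 4.3.3, lmFit and eBayes with intensity trend, group as the only term, two-sided), with calls at an adjusted p under 0.05 (Benjamini-Hochberg across the probe sets tested). In counts of genes each gene is taken by its brightest tested probe set. ± is the standard error unless given as SD. The number of arrays limits the precision. The text names all members, up to 4 called genes with the smallest p of each list, and the 3 genes most like the extreme members. Members and lists were chosen with earlier results of these data known. On simulated data with 22519 probe sets, 50 were changed at each size. There 34% of changes of 1.2-fold, 60% of 1.3-fold, 86% of 1.5-fold and 98% of 2-fold were recovered. The simulation gave 142 calls, against 15945 in the data. The adjustment of p depends on the share of probe sets changed, so these rates do not give the recovery in the data. Plots were drawn with matplotlib 3.10.9. Replicate numbers did not pair the samples.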

Additional observations from a re-analysis of the deposited data

Results flagged for a closer look

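The bacterial poly-A control probe sets, which lie outside the gene comparison, were higher in NADA than in vehicle by 0.58 on the log2 scale (8.49 to 8.87 against 8.13 to 8.16), and their part in the members' values was not tested.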

How the results depend on the processing

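All 14 calls of member probe sets were made again without each array in turn and with the replicate block. Requiring at least 1.5-fold left 6272 of 15945 probe sets, 3047 of 7622 genes, 8 of 14 member probe sets, 4 of 7 member genes and 35 of 80 pathway genes called, and by that rule Pik3ca (0.29), Pik3cd (0.42) and Pik3r1 (-0.22) were not called. Scaling to the poly-A controls turned Pik3ca to -0.29 and Pik3cd to -0.16, and turned the split of called probe sets from 7772 higher and 8173 lower into 1446 and 17031. The mean over all of a gene's probe sets, dim ones included, turned Pik3cd to -0.033. Without each array in turn the log2 fold changes ranged from 3.18 to 3.33 for Pik3ip1, 2.13 to 2.20 for Ccng2, 1.09 to 1.17 for Foxo3, 0.29 to 0.50 for Pik3cd, 0.27 to 0.31 for Pik3ca, -0.25 to -0.17 for Pik3r1 and -0.95 to -0.89 for Akt1. Deviations of samples with the same replicate number correlated at 0.19, -0.10 and 0.02, so the numbers were not used as pairs, and the replicate block gave 15956 called probe sets. Signal under the dim limit kept Foxo1, Irs2, 3 of the 6 probe sets of Pik3cd and 1 probe set each of Pik3ca, Akt1 and Foxo3 out of the reported test.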
